A study of Mus musculus with 4 samples.

Results

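The genes described here are 10 members of the transforming growth factor β (TGF-β) pathway, namely the ligand genes Tgfb1, Tgfb2 and Tgfb3, the receptor genes Tgfbr1 and Tgfbr2, the signal transducers Smad2 and Smad3, the inhibitory genes Smad6 and Smad7, and the corepressor gene Skil. A YAP peak belonged to one of these genes when its summit, the highest point of the peak, lay inside the gene span in mm10, or outside every protein-coding span but within 100 kb and nearest to that gene. This rule used position only, and it gave 57 of the 36576 peaks of wild-type (WT) epidermis and 21 of the 14879 peaks of Bmal1 knockout (KO) epidermis. The peaks come from chromatin immunoprecipitation and sequencing (ChIP-seq) with an anti-YAP antibody on epidermal cells of adult mice of 18 to 25 weeks, killed at Zeitgeber time 4 (ZT4, counted in hours from lights on). Bmal1 encodes BMAL1, which with its partner CLOCK drives transcription in the circadian clock. The genotype label reads Bmal1 KO and the protocol Bmal1cKO. The sources used here do not give the Cre driver or the cells that lost the gene. Each genotype has 1 pooled peak list, and what was pooled is not stated, so no value has a replicate error and no test between genotypes was possible. Peak lists hold no expression values, so neither the epidermal label nor the genotype label could be checked against marker genes.

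TGF-β ligands are secreted in latent form and, once released, bind the type II receptor TGFBR2, which activates the type I receptor TGFBR1. The receptor complex phosphorylates SMAD2 and SMAD3, which join SMAD4, enter the nucleus and act on target genes, while SMAD6 and SMAD7 block the receptors and SKIL (SnoN) holds SMAD complexes in a repressed state. In the epidermis the pathway is known for restraining keratinocyte proliferation and for its part in wound repair and hair follicle cycling. YAP is a co-activator with no DNA-binding domain of its own that reaches DNA mainly through TEAD factors, often near AP-1 sites, and it can form complexes with SMAD proteins.

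The promoters that a peak covered are shown first, to place that signal on the sequence. RefSeq promoter entries (build GRCm38.p6, which is mm10) were matched for 6 of the 10 genes in 7 windows, and the 250 bases before the start were searched. WT peaks covered this stretch at Smad3, over all 250 bases, and at Tgfbr2, over 45 bases, and no KO peak covered either. The share of all promoter windows covered by a WT or KO peak was not calculated. Both are given 5′ to 3′ on the minus strand, Smad3 at chr9:63757995-63758244 and Tgfbr2 at chr9:116175364-116175613, with motif letters in capitals.
Smad3: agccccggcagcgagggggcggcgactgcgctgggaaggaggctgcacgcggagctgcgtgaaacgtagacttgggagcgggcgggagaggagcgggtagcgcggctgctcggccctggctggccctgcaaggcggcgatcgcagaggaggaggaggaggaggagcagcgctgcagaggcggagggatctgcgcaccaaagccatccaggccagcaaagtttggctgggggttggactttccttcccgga
Tgfbr2: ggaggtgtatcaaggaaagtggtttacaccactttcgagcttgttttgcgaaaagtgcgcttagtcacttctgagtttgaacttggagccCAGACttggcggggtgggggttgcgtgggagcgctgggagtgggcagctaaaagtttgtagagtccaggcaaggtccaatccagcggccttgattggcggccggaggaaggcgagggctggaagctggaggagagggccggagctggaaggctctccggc
The Smad3 stretch held none of the 4 motifs searched on both strands, and the Tgfbr2 stretch held the SMAD-binding element CAGAC once, starting 160 bases before the start and so outside the 45 bases next to the start that the peak covered. Among 32851 promoter windows of all genes, the TEAD letters GGAATG were present in 12.6%, the AP-1 letters TGANTCA in 6.75%, CAGAC in 42.2% and the E-box CACGTG, the class of element bound by BMAL1, in 6.02%. These motifs do not overlap in the printed stretches. No member window held GGAATG or TGANTCA. Besides Tgfbr2, CAGAC was present 2 times in the Tgfb2 window and 1 time in a Tgfbr1 window, neither covered by a WT peak. The E-box was found once, starting 51 bases before the listed start of Tgfb2, a start that lies inside the gene span. The nearest WT summit lay 10471 bp downstream of that start. At Smad3 the nearest WT summit was 308 bp before the start with 48 reads, and at Tgfbr2 it was 86 bp after the start with 39 reads. Few WT peaks this weak overlapped a KO peak in the whole list, 3.82% of those with 40 to 49 reads and 1.27% of those under 40.

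The strength of a peak is given below as reads at its summit, recovered from the authors' fold and −log10 p, on a scale where evenly spread reads give 9.63 in both lists. The median WT peak of the whole list held 61 reads, and the range was 28 to 290. The 57 WT peaks of the TGF-β genes held a median of 55 reads, with a lowest value of 36 and a highest of 148. A WT peak was counted as kept if any KO peak shared 1 bp or more with it, and as WT-only if none did. A kept peak is described by the log2 of KO over WT reads after the background was subtracted on both sides, with a counting standard error (SE) that covers counting error only.

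The ligand genes had 10 WT peaks, 8 of them at Tgfb2 and 2 at Tgfb1. Tgfb1, which encodes the most widely expressed ligand, lies on chromosome 7 from 25687002 to 25705077 and had 2 WT peaks and no KO peak. Its inside peak, from 25689075 to 25689682, held 44 reads, and the other, 2815 bp past its 3′ end, held 38. Over the whole list, 3.82% of WT peaks of 40 to 49 reads were kept, and 1.27% of those under 40. Tgfb3, on chromosome 12 from 86056743 to 86079041, was the only one of the 10 genes with no peak in either list. Neighbouring genes limited the stretch that the rule assigned to Tgfb3 to 25.5 kb. The WT peak closest to Tgfb3 lay 12045 bp from its span, belonged to the neighbouring gene Ift43, and held 70 WT and 41 KO reads.

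Tgfb2, a ligand known in mouse skin for its part in hair follicle growth, had 8 WT peaks, of which 2 were kept. The strongest, from 186634765 to 186635654 on chromosome 1 inside the gene, held 100 WT and 50 KO reads, a log2 ratio of -1.16 (counting SE 0.30). The local background at this site was 22.6 reads in KO against 9.63 in WT, and its part in the ratio was not tested. With 50% reciprocal overlap this site was not kept. The other kept site, from 186609947 to 186610470 and 12614 bp downstream of the span, held 93 WT and 55 KO reads (-0.88, SE 0.29). The 6 WT-only peaks held 37 to 62 reads, all below both kept peaks. The strongest of them was also downstream, from 186586835 to 186587323.

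The receptor genes differed from each other in how many sites they had. Tgfbr1, encoding the type I receptor kinase, had 2 WT peaks on chromosome 4. The first, from 47407003 to 47407631 inside the gene, held 108 WT and 67 KO reads, a log2 ratio of -0.78 (SE 0.26). The second, 23249 bp downstream of the gene, held 40 WT reads and was WT-only.

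Tgfbr2, encoding the ligand-binding type II receptor, had the most sites of the 10 genes, 14 in WT and 6 in KO. That many WT peaks or more were linked to 229 of 21627 protein-coding genes, or 1.06%, against a median of 2 among genes with any WT peak. These counts depend on the length of the stretch that the rule assigned to a gene, which was 193 kb at Tgfbr2 and 21.3 kb at Tgfb1. Per 100 kb of it, Tgfbr2 had 7.24 WT peaks and Tgfb1 9.39, the latter from 2 peaks only. Tgfbr2 lies on the minus strand of chromosome 9 from 116087695 to 116175363. Only 3 of its WT peaks were inside the span, and the other 11 lay upstream of it, between 15650 and 95138 bp away, with 5 of the 11 kept. The next gene, Gadl1, is on the other side of Tgfbr2, so these 11 summits lie in a stretch with no other protein-coding gene nearer.

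The 2 strongest peaks of all 10 genes were in this upstream stretch of Tgfbr2. The peak from 116270192 to 116270786 held 148 WT reads (exact 95% interval 125 to 174) and 84 KO reads, a log2 ratio of -0.90 (SE 0.22). The peak from 116223169 to 116223852 held 135 WT reads (113 to 160) and 88 KO reads, a ratio of -0.68 (SE 0.22). The counting intervals of the WT reads overlap, so the order of these 2 peaks is not resolved. Of the other kept Tgfbr2 sites, the one from 116209771 to 116210287, with 82 WT and 55 KO reads, had the highest ratio of the gene at -0.67 (SE 0.30). The lowest was the inside site from 116152840 to 116153363, with 94 and 45 reads (-1.25, SE 0.32). The strongest WT-only peak among the 10 genes was also here, from 116234176 to 116234584, with 80 reads. Its equal in WT reads, from 116219384 to 116219845, was kept with 42 KO reads (-1.12, SE 0.34). The local WT background was 9.63 reads at the first of these sites and 14.4 at the second, and its part in the result was not tested. The site from 116190469 to 116191219, with 76 and 43 reads (-0.99, SE 0.34), was kept with any overlap but not with 50% reciprocal overlap.

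The limit of 100 kb falls within this Tgfbr2 stretch. The peak just inside it is the one with 148 WT reads at 95138 bp. Just outside it, 138728 bp from the span and from 116313526 to 116315108, lay a peak of 220 WT and 162 KO reads (log2 ratio -0.47), stronger than any peak within the limit. From 100 to 300 kb, 4 WT peaks had one of the 10 genes as the nearest, all of them at Tgfbr2, and 2 of the 4 were kept. These are not counted among the 57.

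**Figure D1:**
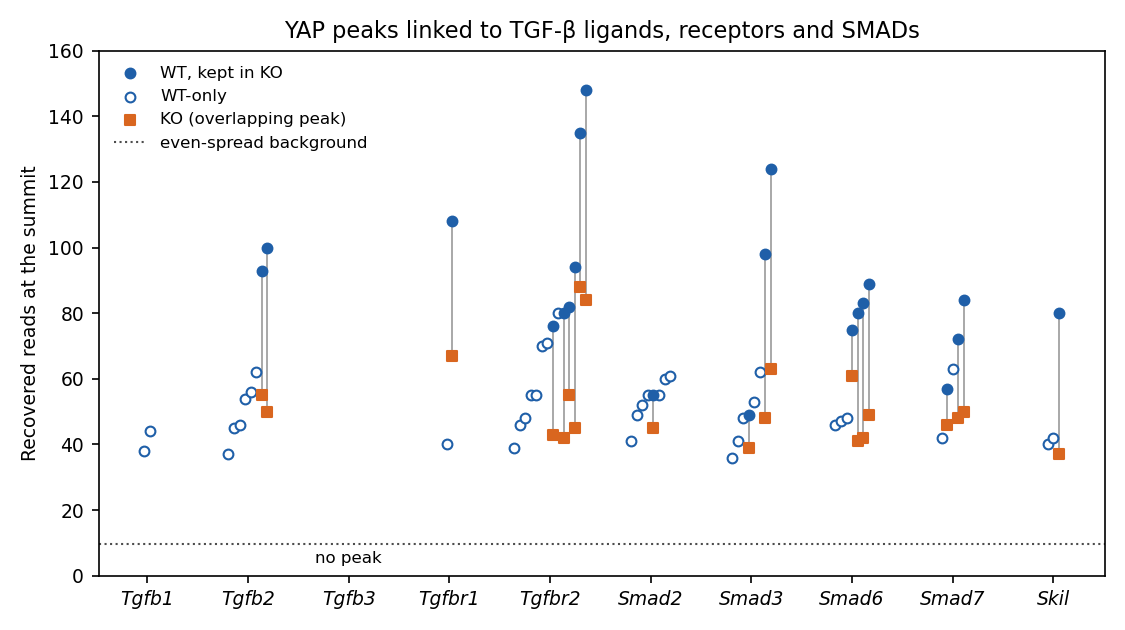
Recovered reads at the summit (vertical axis, reads) of every YAP peak linked to each of the 10 genes, sorted by WT reads within a gene. Filled circles are WT peaks kept in KO, open circles WT-only peaks and squares the overlapping KO peak, joined by a line; the dotted line is the even-spread background of 9.63 reads. Tgfbr2 reaches 148 WT reads, Tgfb1 stays at 44 or below, Tgfb3 has no peak, and each KO square lies below its WT circle.

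Smad2 and Smad3, which encode the transducers phosphorylated by the receptors, had 8 WT peaks each. At Smad2, on chromosome 18, 1 of the 8 was kept, and none exceeded 61 WT reads. Over the whole list the kept share was 3.82% at 40 to 49 reads, 13.4% at 50 to 59 and 31.8% at 60 to 69. The kept site, from 76336007 to 76336517 and 24498 bp outside the span, held 55 WT and 45 KO reads, a log2 ratio of -0.36 (SE 0.36). Its strongest peak, from 76257037 to 76257379 inside the gene, held 61 reads and was WT-only. Peaks of 60 and 55 WT reads lay 575 and 1199 bp inside one end of the span, and neither was kept. The 7 WT-only peaks held 41 to 61 reads, a range that includes the kept peak, so the kept site was not the strongest one.

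At Smad3, on the minus strand of chromosome 9 from 63646766 to 63757994, 3 of 8 WT peaks were kept. The strongest, from 63836803 to 63837415, held 124 WT (exact 95% interval 103 to 148) and 63 KO reads, a log2 ratio of -1.10 (SE 0.26). It lay 79148 bp upstream of Smad3 and 115934 bp from Smad6, the next gene along the chromosome. Inside Smad3, the site from 63745542 to 63746374 held 98 and 48 reads (-1.20, SE 0.31), and was not kept with 50% reciprocal overlap. Near the start of the gene, the site from 63756639 to 63757064 held only 49 WT reads and was kept with 39 KO reads (-0.42, SE 0.40), while the promoter peak of 48 reads beside it was WT-only. The KO summit of that kept site was 166 bp from the WT summit, the largest shift among the kept sites of the 10 genes. The strongest WT-only peak at Smad3, from 63698682 to 63699077, held 62 reads.

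The inhibitory genes Smad6 and Smad7 kept 7 of their 12 WT peaks (58.3%, exact 95% interval 27.7 to 84.8), an interval that includes the 39.1% of all WT peaks. Smad6, which encodes an inhibitor acting mainly on the BMP branch, kept 4 of 7. Its strongest site, from 63896312 to 63896865 and 56501 bp downstream of the span, held 89 WT and 49 KO reads (-1.01, SE 0.31). The lowest ratio of the gene was at the site from 64022758 to 64023409, 1048 bp outside the span on the upstream side, with 83 and 42 reads (-1.18, SE 0.34). The site from 63927527 to 63928066 had 75 and 61 reads, and its ratio of -0.35 (SE 0.29) was the highest of the 10 genes. The 3 WT-only peaks of Smad6 held 46 to 48 reads, below all 4 kept ones.

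Smad7, which encodes an inhibitor of TGF-β receptors and is itself a much-used readout of the pathway, had a compact group of kept sites at one end of its span. The 3 kept peaks lay 450, 2840 and 3972 bp outside that end, on chromosome 18. The farthest, from 75362958 to 75363805, held 84 WT and 50 KO reads (-0.88, SE 0.31) and was the strongest of the gene. The middle one, from 75364164 to 75364780, held 57 and 46 reads (-0.38, SE 0.35). The nearest, from 75366449 to 75367176, held 72 and 48 reads (-0.70, SE 0.33). None of the 3 was kept when both lists were limited to a fold of at least 5, and the middle one was also lost at a −log10 q of at least 10. Both peaks inside Smad7 were WT-only, with 63 and 42 reads. The inside peak of 63 reads, from 75375466 to 75375976, stood on a local background of 20.2 reads, the highest of the 57 WT peaks. Its part in the result was not tested.

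Skil, which encodes the corepressor SnoN, a protein degraded on TGF-β signalling and re-expressed as a target, had 3 WT peaks on chromosome 3. The kept one, from 31094428 to 31095264 with its summit 218 bp outside the span, held 80 WT and 37 KO reads. Its log2 ratio of -1.36 (SE 0.37) was the lowest of the 10 genes, and it was not kept with 50% reciprocal overlap. A second peak of 42 reads, from 31093651 to 31094155, lay 1125 bp outside the same end and was WT-only. The third, 11598 bp past the other end, held 40 reads and was WT-only too.

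**Figure D2:**
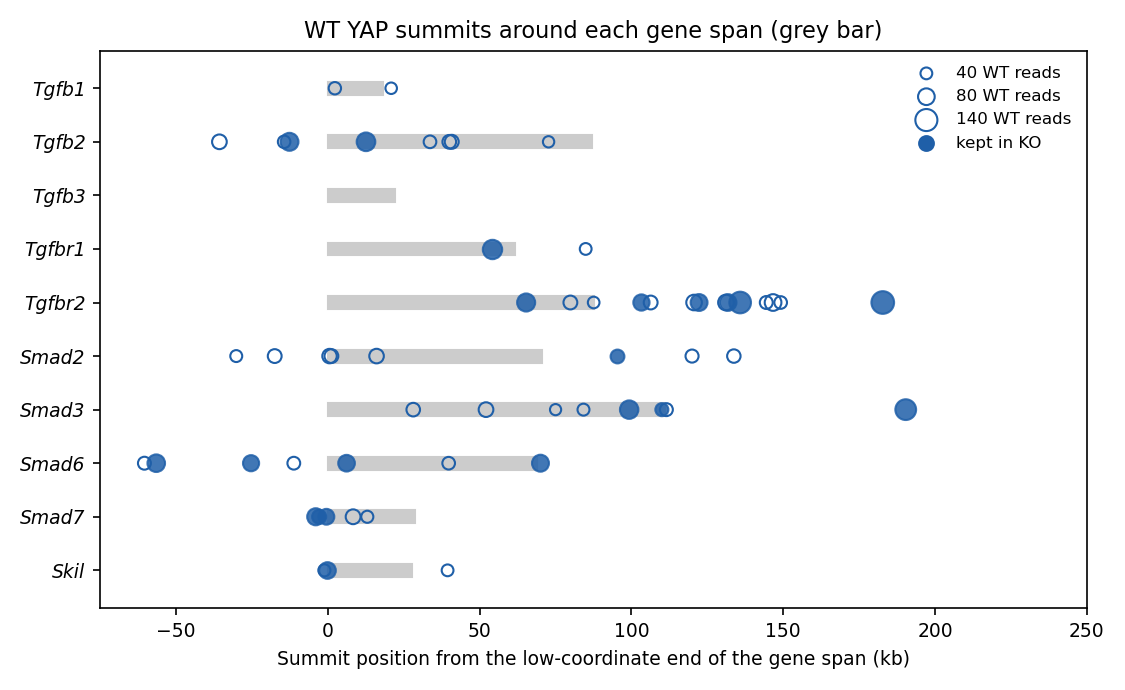
Position of each WT summit (horizontal axis, kb from the low-coordinate end of the gene span) for the 10 genes, with the span as a grey bar, circle area in proportion to WT reads and filled circles for peaks kept in KO. At Tgfbr2 11 of 14 summits lie beyond the span, up to 95138 bp from it, whereas the 3 kept Smad7 peaks lie within 3972 bp of one end.

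Ordered by their strongest WT peak, the genes ran from Tgfbr2 with 148 reads through Smad3 with 124, Tgfbr1 with 108, Tgfb2 with 100, Smad6 with 89, Smad7 with 84, Skil with 80 and Smad2 with 61 to Tgfb1 with 44. The exact 95% counting intervals of every neighbouring pair in this order overlap, so only distant ranks are resolved. The strongest WT peak was kept in 7 of the 9 genes that had a peak, the exceptions being Smad2 and Tgfb1. The 7 kept ones held 80 reads or more, a level at which 91.1% of all WT peaks were kept. The exceptions held 61 and 44, in bands of reads where 31.8% and 3.82% of all WT peaks were kept.

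WT peaks were found at 9 of the 10 genes, and KO peaks and kept peaks at 8. Among all protein-coding genes the shares were 53.2% with a WT peak, 30.1% with a KO peak and 30.0% with a kept one. The stretches assigned to the 10 genes sum to 1330 kb and held 4.28 WT and 1.58 KO peaks per 100 kb, against 1.83 and 0.741 over all of the genome within 100 kb of a protein-coding gene. The 10 genes were chosen by name with earlier results of these lists known, so these densities are descriptions.

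Of the 57 WT peaks, 21 (36.8%, exact 95% interval 24.4 to 50.7) were kept in KO, against 39.1% of all WT peaks, a share near that of the whole list. All 21 KO peaks of these genes overlapped a WT peak, against 99.0% of all KO peaks, so there was no KO-only site at any of the 10 genes. With the WT list cut by score to the number of KO peaks, 22 WT peaks of these genes were left and 81.8% of them were kept, against 77.8% of all. With both lists limited to a −log10 q of at least 10, 10 of the kept sites lost their KO partner, at Tgfb2, Tgfbr2, Smad2, Smad3, Smad6, Smad7 and Skil. With a fold of at least 5 it was 12, at the same genes except Smad2. The whole list was also affected by these limits. At the q limit 27.0% of the 37 remaining WT peaks of these genes were kept (13.8 to 44.1), against 38.0% of all. At the fold limit 23.1% of the 26 remaining were kept (8.97 to 43.6), against 30.1% of all. Both intervals include the share of the whole list.

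Whether a site was kept went with its WT reads. Kept sites had a median of 83 WT reads (lowest 49) and WT-only sites a median of 48 (highest 80). Of the 16 peaks with at least 80 WT reads, 15 were kept, against 91.1% of all such peaks. Of the 41 weaker ones, 6 were kept (14.6%), against 18.2% of all. Applying the kept share of all WT peaks in each band of reads to these 57 peaks gives 20.2 kept peaks, beside the 21 counted. In the band from 60 to 69 reads none of 5 was kept, where 31.8% of all peaks were, and the interval for 5 peaks reaches up to 52.2%.

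**Figure D3:**
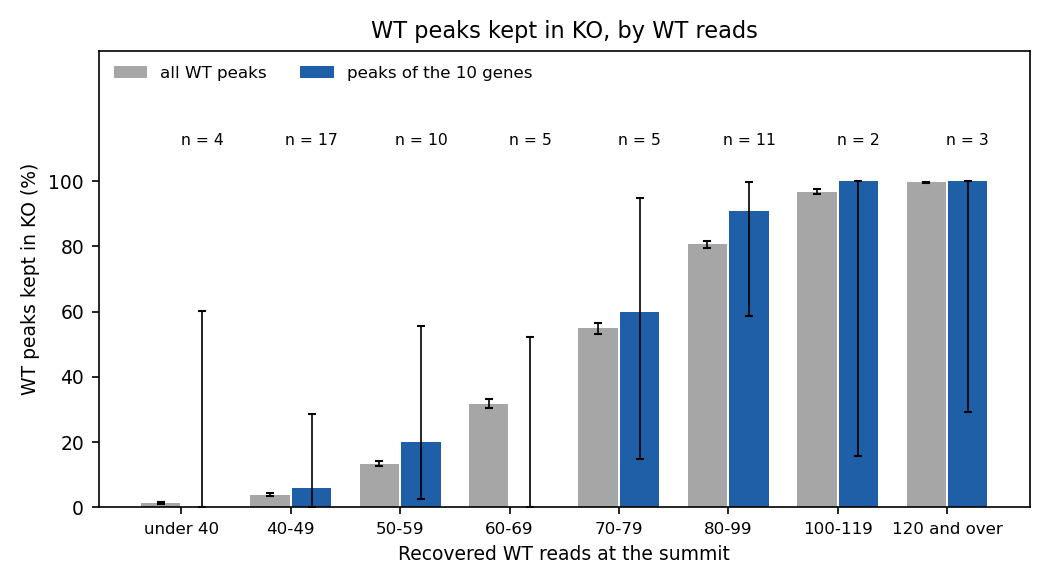
WT peaks kept in KO (vertical axis, percent) by recovered WT reads (horizontal axis, reads), for all WT peaks in grey and for the 57 peaks of the 10 genes in blue, with exact 95% intervals and the number of peaks of the 10 genes above each pair. The grey share climbs from 1.27% under 40 reads to 99.8% at 120 reads and over; the blue share does so too except for 0 of 5 peaks from 60 to 69 reads, and the wide blue intervals include the grey value in every band.

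At all 21 kept sites KO held fewer reads above background than WT, as did 99.5% of all kept sites. The median was 83 reads in WT and 48 in KO, and the median log2 ratio was -0.90 (interquartile range -1.16 to -0.68), against -0.88 (-1.07 to -0.69) over all kept sites. A KO level of 50% or less of WT, a log2 ratio at or under -1, was seen at 9 of 21 sites (42.9%, 21.8 to 66.0), against 32.9% of all kept sites. Each of the 21 ratios lay within 2 counting SEs of the median of all kept sites, as did 95.4% of all kept sites. The SD of the ratios between sites was 0.316, and the median counting SE of a site was 0.31, so the order of the genes by ratio is not resolved. The ratio cannot fall far at weak sites, because a KO peak had to be called there: over all kept sites the median was -0.30 from 40 to 49 WT reads and -0.97 from 80 to 99. In the latter band the 10 kept sites of these genes had a median of -1.14. The 3 from 70 to 79 reads had -0.70 against -0.89 over all, the 2 from 50 to 59 reads -0.37 against -0.57, and the 2 from 100 to 119 reads -0.97 against -0.98.

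**Figure D4:**
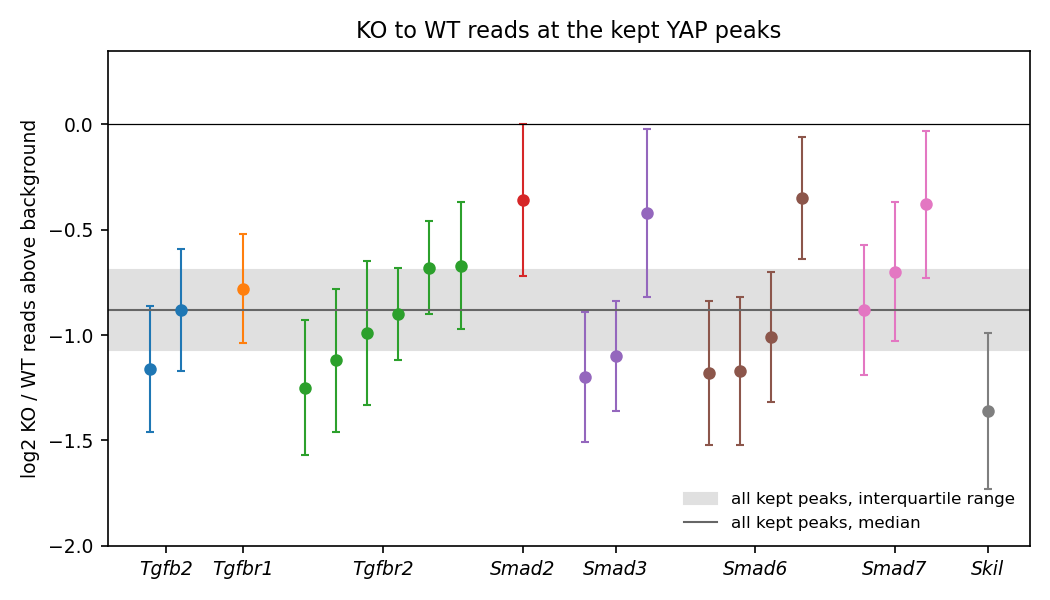
The log2 ratio of KO to WT reads above background (vertical axis) at the 21 kept sites, grouped by gene along the horizontal axis, with bars of 1 counting SE. The line and grey band are the median (-0.88) and interquartile range of all kept sites; the sites run from -1.36 at Skil to -0.35 at Smad6 and all lie below 0.

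The kept sites were also narrower. All 21 had a smaller width in KO, with a median width of 418 bp against 613 bp in WT, as had 96.0% of all kept sites. The summit moved by a median of 36 bp, against 33 bp over all kept sites. The KO local background was above that of WT at 6 of the 21 sites (28.6%), against 31.1% of all.

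The gene table gives spans without exons, so introns, exons and untranslated regions could not be told apart. Inside the spans were 23 of 57 WT peaks (40.4%, 27.6 to 54.2), against 53.3% of all WT peaks. Of the 23, 6 were kept (26.1%, 10.2 to 48.4), and of the 34 outside, 15 (44.1%, 27.2 to 62.1), against 37.4% inside and 41.2% outside for all peaks. The intervals of the inside and outside shares overlap. The median log2 ratio was -1.16 at the 6 inside sites and -0.88 at the 15 outside sites, against -0.88 for both over all kept peaks. The inside ratios ran from -1.25 to -0.42 and the outside ones from -1.36 to -0.35, so the ranges overlap. No more than 2 kb from an end of a gene span were 9 of the 57 peaks (15.8%, 7.48 to 27.9), against 27.2% of all WT peaks. Of these 9, 4 were kept, at Smad3, Smad6, Smad7 and Skil, against 32.4% of all peaks near a gene end. Farther away 17 of 48 were kept (35.4%), against 41.6% of all such peaks.

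The rest of the pathway was described through 68 other genes in 7 groups. Peaks were linked to them by the same position rule, so a linked site can lie up to 100 kb outside the span. The peak count of a gene depends on the length of its assigned stretch, which was not calculated for these 68 genes. WT peaks were linked to 56 of these, KO peaks to 43 and kept peaks to 42. Among all protein-coding genes, 53.2% had a WT peak, 30.1% a KO peak and 30.0% a kept one. The 68 genes were chosen by name, so these counts are descriptions. Together they had 248 WT peaks. The kept ones numbered 101 (40.7%, 34.6 to 47.1), against 39.1% over the whole list, with a median log2 ratio of -0.90. The kept share was lowest for activins, BMPs and their antagonists, at 11 of 40 peaks (27.5%, 14.6 to 43.9). It was highest for commonly cited target genes, at 25 of 49 (51.0%, 36.3 to 65.6). The median WT reads of these 2 groups, 54.5 and 74, were also the lowest and the highest of the 7 groups.

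Genes that act around the receptors had linked sites stronger than any linked to the 10 genes. The strongest lay inside Itgb6, 2019 bp outside Bmpr2 and 12389 bp outside Acvr1b. Among activators of latent TGF-β, 17 of 37 WT peaks were kept, and Itgb6, an integrin subunit that releases the ligand, had 11 WT peaks, 7 of them kept, and a ratio of -0.91 at its strongest. Among other receptors, 16 of 40 were kept. Bmpr2, the type II BMP receptor, had a site of 200 WT and 123 KO reads (-0.75), and Acvr1b, the activin type I receptor that also signals through SMAD2 and SMAD3, one of 196 and 136 (-0.56).

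Corepressor and turnover genes had linked WT peaks as well. The single sites described below lay outside the spans of Tgif1 (35325 bp), Crebbp (28744 bp), Zfyve9 (8408 bp) and Nedd4l (37091 bp). Those of Ski and Smurf1 lay inside. Among nuclear partners, 12 of 25 WT peaks were kept. Tgif1, a SMAD corepressor, had 11 WT peaks with 6 kept, the strongest with 204 WT and 121 KO reads (-0.80). Ski, the paralogue of Skil, had a site of 189 and 140 reads (-0.46), and Crebbp, a coactivator, one of 167 and 98 (-0.83). Among membrane and turnover regulators, 14 of 43 were kept. Zfyve9, which encodes the SMAD anchor SARA, had a site of 193 and 124 reads (-0.68). Smurf1, a ubiquitin ligase that targets SMADs, had one of 120 and 83 (-0.59). Nedd4l, a ligase that turns over activated SMAD2 and SMAD3, had 19 WT peaks with 7 kept, against 14 WT peaks at Tgfbr2. These counts were not adjusted for the stretch assigned to each gene. The strongest Nedd4l site held 131 and 63 reads (-1.19). Of the other SMAD genes, Smad1, Smad4 and Smad5 had WT peaks, 6 of 14 kept, and none reached 120 reads.

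Among ligands and antagonists of the wider family, Bmp7 had 16 WT peaks with 3 kept, the strongest with 189 WT and 98 KO reads (-1.02). Bmp6 had a site of 136 and 60 reads (-1.33), and Fstl3, an activin antagonist, one of 129 and 62 (-1.19). Among target genes, Klf10, an early TGF-β response gene, had 11 WT peaks with 6 kept and a strongest site of 194 and 129 reads (-0.63). Tgfbi, a matrix gene induced by TGF-β, had one of 148 and 85 (-0.88) and the cell cycle inhibitor Cdkn1a one of 129 and 76 (-0.85). Id3 had one of 132 and 70 (-1.02) and Id1 one of 123 and 53 (-1.39), both being BMP response genes. Genes with no linked WT peak included Mmp9, Acvr2b, Smad9, Foxh1, Bambi, Strap, Inhba, Inhbb, Grem1, Dcn and Snai1.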

How the data were processed

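YAP ChIP-seq peaks of 1 WT and 1 KO pooled sample were analysed, and the inputs have no file used here. Per the submitters' processing notes, Trimmomatic 0.36, SAMtools 1.5 and MACS2 2.1.1 were used with mm10, without stated roles. The sources used here name no aligner. Per the labels, 25 to 50 M reads of 51 bp were obtained per sample. The authors' deposited lists give each peak a score (10 times −log10 q, truncated), a fold (ratio of summit signal to the caller's background) and −log10 p and −log10 q values, the latter above 2 throughout. From fold and −log10 p, the scaling (0.694 for WT, 0.842 for KO) and whole summit reads were solved with Python 3.11.15, NumPy 2.4.6, pandas 2.3.3 and SciPy 1.17.1. A whole number of reads matched −log10 p within 0.002 in all but 1 peak, against 0.93% (WT) and 0.397% (KO) with the scaling 3% off. The procedure was tested on simulated data. Recovered reads have equal even-spread background in both lists and are comparable only in these units.

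Summits were linked to the spans of 21627 protein-coding gene symbols (RefSeq, GRCm38.p6). A kept peak was paired with the overlapping KO peak of most reads. Intervals are exact 95% (Clopper-Pearson for shares, Poisson for reads) and cover counting error only; no test was run. Every member was named, with its strongest peak, its strongest WT-only peak and its highest and lowest kept ratios. Of the other genes, those with a peak of at least 120 reads, with at least 10 peaks, or with none were named, except 1 that is not reported here. The genes and lists were chosen with earlier results of these data known. The densities, the weighting by reads, the promoter overlaps, the peaks beyond 100 kb and the summary of shapes were chosen after seeing the data. Alternatives were other distance limits, peak limits, overlap rules, pairings, gene end zones and no background subtraction. The motif search at summits was not run.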

Additional observations from a re-analysis of the deposited data

How the results depend on the processing

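With a distance limit of 10 kb the 10 genes had 31 WT and 11 KO peaks, and with summits inside the span 23 and 6. The median log2 ratio was -1.16 in both, from 11 and 6 kept sites. It was -1.10 for the 15 kept WT peaks of at least 80 reads. Over all kept sites the median was -0.97 from 80 to 99 reads, -0.98 from 100 to 119 and -0.88 at 120 and over. Inside spans the median over all kept sites was -0.88, and for the 10 kb limit it was not calculated. With a −log10 q of at least 10 in both lists there were 37 WT and 10 KO peaks, and with a fold of at least 5 there were 26 and 6. Cutting the WT list by score to as many peaks as KO left 22 WT peaks. The share of WT peaks kept was 23.1% with a fold of at least 5 (30.1% of all WT peaks) and 81.8% with the shortened list. With 50% reciprocal overlap 81.0% of the KO peaks had a WT partner, and 4 kept sites failed that rule, at Skil, Smad3, Tgfb2 and Tgfbr2. Under it 29.8% of the WT peaks of these genes were kept, against 32.1% of all WT peaks. The share of all KO peaks with a WT partner under this rule was not calculated. Of the 68 other genes, 22 had a kept peak with summits inside the span and 21 with a fold of at least 5. The shares of all genes under these limits were not calculated. Stricter limits and shorter distances leave fewer peaks by construction; otherwise the cause was not tested. Of the alternatives of the main results, 17 moved beyond the interval, a factor of 1.5 or 0.1 in log2, and 27 did not. Over the 57 WT peaks, each taken under every alternative that retained it, overlap with KO changed in 26 combinations of peak and alternative and not in 173. Motif windows around summits were not run without a genome sequence. The weakest KO peak of the list held 29 reads, which limits what can be seen at weak sites. No paired analysis was possible because there is 1 pool for WT and 1 for KO.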
